A study of Mus musculus with 6 samples.

Results

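The chemokine ligands and receptors described here are the 34 protein-coding genes of the 17924 in the table whose symbol is that of a CXC, CC or CX3C ligand, one of their receptors or an atypical receptor. They comprise 23 ligands and 11 receptors, and the rule uses the symbol and the biotype, although it was set with earlier results of these data known. Genes with other symbol forms, such as Pf4, are given apart. Chemokines are small secreted proteins that bind to matrix and to G protein-coupled receptors and draw leukocytes and other cells along their gradients. They are named by the spacing of their first cysteines as CXC, CC and CX3C ligands, and their receptors as Cxcr, Ccr and Cx3cr1. Atypical receptors (Ackr, Ccrl2) bind chemokines or chemerin without the usual signalling through G proteins and clear or present them. In skin and fat, chemokines are made by fibroblasts and preadipocytes as well as by resident macrophages, and monocytes that answer Ccl2 are the best known source of new macrophages in fat.

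The question was which of these genes differed between CTL and Nelfb-/- cells. Nelfb encodes a subunit of NELF, the negative elongation factor complex that holds RNA polymerase II near the promoter. The cells were dermal fibroblasts of the back skin of newborn C57BL/6J mice at postnatal day 0, isolated by enzymatic digestion and kept for 14 days in adipocyte differentiation medium before total RNA was sequenced. Both groups carried the Cre recombinase driven by the Pdgfra promoter, and each was sequenced as 3 biological replicates. CTL cells were Nelfb wt/wt or Nelfb fl/wt, with no label to say which, and Nelfb-/- cells were Nelfb fl/fl. The Pdgfra promoter is active mainly in mesenchymal cells, and which cells of these cultures kept Nelfb was not measured. Values are given as CPM (a gene's reads for every 1e+06 reads that fell on listed genes in that library), with the replicates always in the order 1, 2 and 3. CPM is not corrected for gene length, so levels are compared between genes only where CPM per kb of exon is stated.

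Depth on the listed genes was 17.2 to 29.4 M reads (M, 1e+06) a library, and 3 reads, the floor used here, were worth 0.102 to 0.175 CPM. Nelfb was at 17.3, 19.6 and 22.3 CPM in CTL and at 5.50, 3.90 and 5.55 CPM in Nelfb-/- libraries, a log2 fold change of -1.99 ± 0.22 (SE, adjusted p = 0.0050 in limma). The RNA of Nelfb was thus reduced and not at 0 in Nelfb-/- libraries. CTL replicate 3 stood apart from the other CTL libraries, with the adipocyte gene Adipoq at 698 CPM against 1768 and 1857 CPM. CTL replicate 1 held Xist, the RNA of the inactive X chromosome, at 771 CPM against at most 29.8 CPM elsewhere. Results are therefore also given without single libraries where that changes a call. Marker RNA of other cell types was present beside that of fibroblasts and adipocytes, and it is given after the chemokine genes. In these bulk samples, fewer cells of a type and less RNA per cell cannot be told apart.

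A gene was tested where its mean over the 6 libraries was at least 10 reads at a common depth of 22.3 M reads (0.448 CPM). Values were compared as log2(reads + 1) with limma, p was adjusted over 16252 genes (Benjamini-Hochberg), and a gene was called at an adjusted p of at most 0.05 with a change of at least 2-fold. Log2 fold changes are those of Nelfb-/- over CTL on this scale, which understates changes of genes near the floor. Of the 34 genes, 27 were tested. The others were too low, among them Ccl5, Ccl28, Cxcl2, Ccr9, Cx3cr1 and Cxcr3. Of the 27 tested, 5 (Ccl4, Ccl8, Ccl12, Cxcl5 and Cxcl9) passed the minimum only through their Nelfb-/- libraries and therefore had to differ, so counts over the tested genes are descriptions and do not stand for all members.

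Ligands of most classes were higher in Nelfb-/- cells, whereas the receptors, apart from Ccr1, were not called. Among 20 tested ligands, 13 (65.0%) were called higher and 0 lower, where 7.58% of all genes tested were called higher and 3.64% lower. Among 7 tested receptors, 1 was called higher and 0 lower. At an unadjusted p under 0.05 in limma, 0 ligands and 0 receptors were lower. With the 5 genes that passed through Nelfb-/- alone set aside, 10 of 15 ligands and 1 of 7 receptors were called higher. The median log2 fold change was 2.70 over the tested ligands and 0.31 over the tested receptors, beside 0.07 over all genes tested. The summed level of the 23 ligands was 110.3, 83.7 and 101 CPM in CTL and reached 577, 531 and 544 CPM in Nelfb-/- libraries. For the 11 receptors the sums were 25.8, 23.8 and 23.7 CPM in CTL and reached 85.9, 46.9 and 65.2 CPM in Nelfb-/- libraries. All 3 Nelfb-/- libraries lay above all 3 CTL libraries at 15 of the 20 tested ligands and at 1 of the 7 tested receptors. Of all genes tested, 22.0% did so. None of the members lay apart in the other direction, where 16.1% of all genes tested did. With the untested receptors counted, 4 of 11 lay apart and higher, but the untested ones held few reads and have no such share beside them. Cx3cr1, for one, held 2 reads in CTL replicate 1 and 2 in Nelfb-/- replicate 1. The difference between ligands and receptors was not tested. The number of ligands called depended on the libraries: it was 7 without CTL replicate 2 and 7 without Nelfb-/- replicate 3, while the log2 fold changes of all 14 called genes stayed above 0 without any one library.

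**Figure D1:**
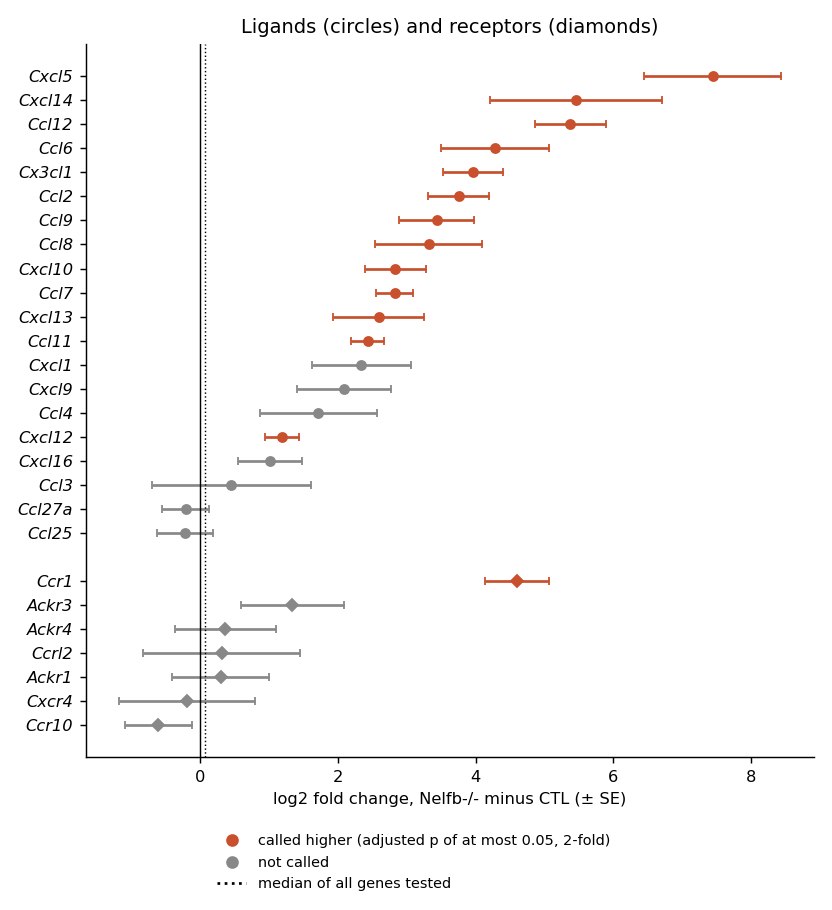
Log2 fold change (x axis, Nelfb-/- minus CTL, bars show the SE from limma) of the 20 tested ligands (circles) and the 7 tested receptors (diamonds). The 14 genes in orange were called higher, from 1.19 for Cxcl12 to 7.44 for Cxcl5, and Ccr1 is the receptor among them. The dotted line marks the median of all genes tested (0.07). The fitted value of Ccl12 rests on 2 CTL reads in all.

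Ccl2 is the main ligand of Ccr2, a receptor on monocytes. It was higher in Nelfb-/- cells, as were its close relatives Ccl7, Ccl12 and Ccl8. All 4 were called, where 7.58% of all genes tested were called higher. Ccl12 and Ccl8 met the minimum on reads only through their Nelfb-/- libraries and therefore had to differ. The summed level of the 4 lay at 10.7, 11.4 and 23.9 CPM in CTL and stood at 135, 126 and 136 CPM in Nelfb-/- libraries. Ccl2 (ENSMUSG00000035385, chr11:82035571-82037453) stood at 3.16, 2.85 and 9.25 CPM in CTL and at 63.6, 54.3 and 61.0 CPM in Nelfb-/- libraries. Its 3 Nelfb-/- values were close to each other, and CTL replicate 3 was the highest CTL value. The log2 fold change was 3.75 ± 0.44 (SE, adjusted p = 0.0058 in limma), and the call held without any one library. Ccl7 (ENSMUSG00000035373, chr11:82045712-82047525), which also acts on Ccr2, was at 7.26, 8.49 and 14.6 CPM in CTL and at 65.2, 68.8 and 71.6 CPM in Nelfb-/- libraries. The spread among its Nelfb-/- libraries was smaller than that among CTL libraries. The log2 fold change was 2.82 ± 0.27 (SE, adjusted p = 0.0040 in limma).

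Ccl12 (ENSMUSG00000035352, chr11:82101845-82103400) is a further mouse ligand of Ccr2 and was nearly unread in CTL cells. It was counted at 1, 1 and 0 reads in CTL and at 99, 39 and 58 reads in Nelfb-/- libraries, or 4.69, 2.27 and 2.37 CPM in the latter. Over the summed reads the ratio of Nelfb-/- to CTL was 114, with a 95% interval of 31.1 to 948 that covers counting error only. Ccl12 was called by limma (adjusted p = 0.0040), also without any one library. Ccl8 (ENSMUSG00000009185, chr11:82115185-82116799), whose protein attracts several leukocyte types, was at 0.271, 0 and 0.102 CPM in CTL and at 1.85, 1.11 and 0.898 CPM in Nelfb-/- libraries. The groups did not overlap, but 1 CTL library held 0 reads and all values were low. The log2 fold change was 3.32 ± 0.77 (SE, adjusted p = 0.035 in limma). The call of Ccl8 held only without CTL replicate 1, and the adjusted p lay between 0.0505 and 0.11 when any other library was left out. Its log2 fold change was 3.97 without CTL replicate 1 and 2.56 without CTL replicate 2.

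Ccl11 (ENSMUSG00000020676, chr11:82057823-82062955), the eosinophil attractant eotaxin, lies within the same row of genes. It was at 4.69, 5.88 and 3.47 CPM in CTL and at 28.4, 25.0 and 21.7 CPM in Nelfb-/- libraries, with little spread in either group. The log2 fold change was 2.43 ± 0.24 (SE, adjusted p = 0.0042 in limma), and the call held without any one library. Ccl2, Ccl7, Ccl11, Ccl12 and Ccl8 are neighbours on chromosome 11 (chr11:82035571-82116799, GRCm38), in a stretch of 81.2 kb where all 5 members were called higher. Of all genes tested, 7.58% were called higher. Ccl12 and Ccl8 passed the minimum on reads only through their Nelfb-/- libraries and had to differ. Within 500 kb of this stretch 1 other gene, Tmem132e, was tested and it was not called.

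**Figure D2:**
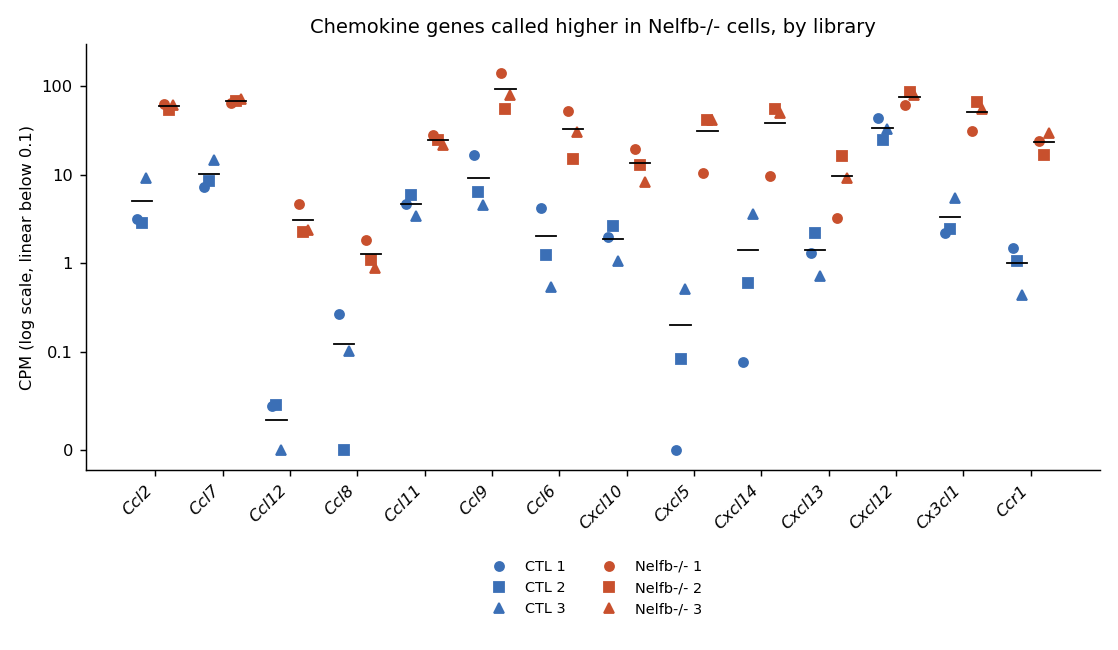
CPM (y axis, log scale, linear below 0.1) of the 14 called genes in each of the 6 libraries. Blue symbols are CTL and orange symbols Nelfb-/-, with circles, squares and triangles for replicates 1, 2 and 3 and a line at the group mean. The groups do not overlap at any of the 14 genes. The 3 Nelfb-/- values of Ccl7 lie between 65.2 and 71.6 CPM, whereas those of Cxcl14 run from 9.82 to 55.4 CPM.

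The ligands related to Ccl3 were not of one kind. Ccl9 and Ccl6, which are rodent ligands of Ccr1 and are strongly made by myeloid cells, were called, whereas Ccl3 and Ccl4, the macrophage inflammatory proteins induced on activation, were not. Ccl9 (ENSMUSG00000019122, chr11:83572919-83578636) was at 16.9, 6.35 and 4.59 CPM in CTL and at 141, 55.4 and 80.7 CPM in Nelfb-/- libraries, with a log2 fold change of 3.43 ± 0.55 (SE, adjusted p = 0.012 in limma). Replicate 1 was highest in both groups. The adjusted p of Ccl9 was 0.052 without CTL replicate 2 and 0.059 without Nelfb-/- replicate 3. Ccl6 (ENSMUSG00000018927, chr11:83587882-83593087) was at 4.24, 1.26 and 0.544 CPM in CTL and at 52.6, 14.9 and 30.8 CPM in Nelfb-/- libraries, with a log2 fold change of 4.28 ± 0.79 (SE, adjusted p = 0.017 in limma). Its 6 values took the same order within each group as those of Ccl9, and its adjusted p was 0.067 without CTL replicate 2 and 0.076 without Nelfb-/- replicate 3. Its log2 fold change was 5.05 without CTL replicate 1 and 3.62 without CTL replicate 3.

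Ccl3 was high in 1 Nelfb-/- library, at 8.12, 8.91 and 1.67 CPM in CTL and at 38.7, 2.97 and 2.69 CPM in Nelfb-/- libraries. The groups overlapped, the log2 fold change was 0.45 ± 1.16 (SE, adjusted p = 0.82 in limma), and the log2 fold change was -0.80 without Nelfb-/- replicate 1 and -0.32 without CTL replicate 3. Ccl4 followed the same shape at 0.676, 0.467 and 0.170 CPM in CTL and at 4.60, 0.873 and 0.612 CPM in Nelfb-/- libraries, and its log2 fold change was 1.71 ± 0.85 (SE, adjusted p = 0.22 in limma). The fitted change of Ccl4 was 0.85 (log2) with Nelfb-/- replicate 1 left out. Ccl5, a further ligand of Ccr1, was not tested and lay between 0.163 and 0.948 CPM, again highest in Nelfb-/- replicate 1. These 5 genes form another row on chromosome 11 (chr11:83525778-83664683, 139 kb), of which 2 were called. Of 23 other tested genes within 500 kb, 5 were called higher, where 7.58% of all genes tested were.

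Among the CXC ligands, Cxcl5 had the largest change. Cxcl5 (ENSMUSG00000029371, chr5:90759360-90761624), Cxcl1 and Cxcl2 carry the ELR motif and attract neutrophils through Cxcr2. Cxcl5 was read 0, 2 and 15 times in CTL libraries, or at 0, 0.0933 and 0.510 CPM, and stood at 10.4, 41.8 and 41.5 CPM in Nelfb-/- libraries. The ratio of summed reads was 134 (95% counting interval 83.2 to 230), and the log2 fold change was 7.44 ± 1.0 (SE, adjusted p = 0.0079 in limma). The call held without any one library, while the log2 fold change became 6.57 with CTL replicate 1 left out, 8.38 with CTL replicate 3 left out and 8.11 with Nelfb-/- replicate 1 left out. CTL replicate 3 alone gave 15 of the 17 CTL reads. Cxcl1 was at 0.496, 0.747 and 3.37 CPM in CTL and at 3.60, 6.64 and 7.67 CPM in Nelfb-/- libraries. The highest CTL and the lowest Nelfb-/- value were close, and the log2 fold change of 2.34 ± 0.72 (SE, adjusted p = 0.074 in limma) did not pass the threshold. Without CTL replicate 3 its log2 fold change was 3.13 with an adjusted p of 0.0096 (limma, Benjamini-Hochberg). Cxcl2 was not tested, overlapped between groups and reached 0.612 CPM at most.

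Cxcl10 (ENSMUSG00000034855, chr5:92346638-92348889) and Cxcl9 are ligands of Cxcr3 that are induced by interferon. Cxcl10 was at 1.98, 2.61 and 1.05 CPM in CTL and at 19.5, 12.9 and 8.40 CPM in Nelfb-/- libraries. Its log2 fold change was 2.83 ± 0.44 (SE, adjusted p = 0.011 in limma), and the call held without any one library. Cxcl9 was at 0.135, 0.187 and 0.340 CPM in CTL and at 0.379, 1.98 and 1.39 CPM in Nelfb-/- libraries. The groups did not overlap, yet the log2 fold change of 2.09 ± 0.68 (SE, adjusted p = 0.087 in limma) was not called, and with Nelfb-/- replicate 1 left out it became 2.75 with an adjusted p of 0.024 (limma, Benjamini-Hochberg). Nelfb-/- replicate 1 held the highest Nelfb-/- value of Cxcl10 and the lowest of Cxcl9.

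Cxcl12, Cxcl13 and Cxcl14 serve homeostatic cell traffic. Cxcl12 (ENSMUSG00000061353, chr6:117168535-117181367), a stromal ligand of Cxcr4 that Ackr3 scavenges, was at 43.7, 24.8 and 33.2 CPM in CTL and at 61.4, 86.8 and 80.0 CPM in Nelfb-/- libraries, with a log2 fold change of 1.19 ± 0.24 (SE, adjusted p = 0.024 in limma). This was the smallest change among the called genes, and the adjusted p was 0.074, 0.083 and 0.10 without CTL replicate 2, Nelfb-/- replicate 2 and Nelfb-/- replicate 3. Cxcl13 (ENSMUSG00000023078, chr5:95956951-95961068), which draws B cells into follicles, was at 1.31, 2.19 and 0.714 CPM in CTL and at 3.27, 16.3 and 9.18 CPM in Nelfb-/- libraries. Its log2 fold change of 2.59 ± 0.66 (SE, adjusted p = 0.046 in limma) was close to the threshold. It was lost under 5 of the 6 leave-one-out fits, those without CTL replicate 1, 2 or 3 or Nelfb-/- replicate 2 or 3, with adjusted p of 0.078 to 0.15, and under median-of-ratios scaling (adjusted p = 0.0505) and without the abundance trend (adjusted p = 0.057). Without Nelfb-/- replicate 1 its log2 fold change was 3.22.

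Cxcl14 (ENSMUSG00000021508, chr13:56288643-56296551), a conserved ligand that epithelia and fibroblasts of skin make, was at 0.0902, 0.607 and 3.57 CPM in CTL and at 9.82, 55.4 and 49.4 CPM in Nelfb-/- libraries. Both groups were widely spread, with CTL replicate 3 above and Nelfb-/- replicate 1 below the rest of its group. The log2 fold change was 5.46 ± 1.25 (SE, adjusted p = 0.033 in limma), and the adjusted p was 0.075, 0.11, 0.10 and 0.12 without CTL replicate 1, CTL replicate 2, Nelfb-/- replicate 2 and Nelfb-/- replicate 3. For Cxcl14 the fitted change became 4.29 (log2) with CTL replicate 1 left out, 6.66 with CTL replicate 3 left out and 6.26 with Nelfb-/- replicate 1 left out. Cxcl16, a membrane-bound ligand of Cxcr6, was at 6.49, 5.69 and 13.6 CPM in CTL and at 27.9, 11.3 and 13.2 CPM in Nelfb-/- libraries. Its groups overlapped and its log2 fold change of 1.01 ± 0.46 (SE, adjusted p = 0.18 in limma) did not pass.

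Cx3cl1 (ENSMUSG00000031778, chr8:94772009-94782427), or fractalkine, is anchored in the membrane as an adhesion molecule and is shed as a soluble attractant by Adam10 and Adam17. It was at 2.21, 2.43 and 5.47 CPM in CTL and at 31.2, 67.2 and 55.0 CPM in Nelfb-/- libraries, and all Nelfb-/- values were far above all CTL values. The log2 fold change was 3.96 ± 0.43 (SE, adjusted p = 0.0052 in limma), and the call held without any one library. Ccl25 and Ccl27a, the ligands of Ccr9 and Ccr10 in gut and in skin epithelium, were not called. Ccl25 lay between 2.38 and 6.44 CPM and Ccl27a between 1.29 and 2.51 CPM, both with overlapping groups and log2 fold changes of -0.23 and -0.22 (limma, adjusted p = 0.74 and 0.70). The reads of Ccl27a may be shared with near-identical copies and are uncertain. Ccl28, a mucosal ligand of Ccr10, was not tested and reached 0.522 CPM at most.

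Ccr1, the receptor of Ccl3, Ccl5, Ccl6 and Ccl9 on monocytes and macrophages, was the receptor that was called. Ccr1 (ENSMUSG00000025804, chr9:123962124-123968692) was at 1.49, 1.07 and 0.442 CPM in CTL and at 23.9, 16.8 and 29.8 CPM in Nelfb-/- libraries. The Nelfb-/- values lay far above all CTL values, the log2 fold change was 4.61 ± 0.47 (SE, adjusted p = 0.0042 in limma), and the call held without any one library. Cxcr4, the Cxcl12 receptor, was at 13.1, 13.1 and 5.03 CPM in CTL and at 42.2, 3.38 and 4.0 CPM in Nelfb-/- libraries. It was high in Nelfb-/- replicate 1 alone, the groups overlapped, and the log2 fold change of -0.19 ± 0.99 (SE, adjusted p = 0.91 in limma) moved between -1.36 and 0.45 as each library was left out. Ccr10, which binds Ccl27a and Ccl28, was at 1.26, 1.63 and 0.816 CPM in CTL and at 1.38, 0.524 and 0.612 CPM in Nelfb-/- libraries, with a log2 fold change of -0.61 ± 0.48 (SE, adjusted p = 0.43 in limma).

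The atypical receptors were not called. Ackr3, the scavenger of Cxcl12, was at 4.24, 3.17 and 15.2 CPM in CTL and at 6.31, 21.2 and 25.1 CPM in Nelfb-/- libraries, with a log2 fold change of 1.34 ± 0.74 (SE, adjusted p = 0.26 in limma). CTL replicate 3 lay above Nelfb-/- replicate 1, so the groups overlapped. With either of these libraries left out the fitted change of Ackr3 became 2.02 or 1.96 (log2), and it was not called (limma, adjusted p = 0.073 and 0.10). Ackr1, which binds many inflammatory ligands on erythrocytes and venules, was at 0.767, 0.233 and 1.26 CPM in CTL and at 1.52, 0.524 and 0.571 CPM in Nelfb-/- libraries, with a log2 fold change of 0.30 ± 0.70 (SE, adjusted p = 0.81 in limma). Ackr4, the scavenger of Ccl19, Ccl21 and Ccl25, was at 3.14, 2.76 and 0.440 CPM in CTL and at 1.68, 2.48 and 2.08 CPM in Nelfb-/- libraries, with a log2 fold change of 0.36 ± 0.74 (SE, adjusted p = 0.77 in limma). Ccrl2, a presenter of chemerin that is induced on activated macrophages, was at 1.26, 1.54 and 0.306 CPM in CTL and at 6.07, 0.349 and 0.530 CPM in Nelfb-/- libraries, with a log2 fold change of 0.31 ± 1.14 (SE, adjusted p = 0.88 in limma). The last 3 had overlapping groups, and their fold changes turned below 0 without some of the libraries.

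The receptors that were not tested averaged fewer than 10 reads a library. With a minimum of 10 reads in 1 or more libraries, and also without CTL replicate 3, the receptors called higher numbered 2. Cx3cr1, the receptor of Cx3cl1, was at 0.0902, 0 and 0.0680 CPM in CTL and at 0.0948, 0.640 and 0.938 CPM in Nelfb-/- libraries, a ratio of summed reads of 10.5 (95% counting interval 3.75 to 40.5), with 36 reads in all Nelfb-/- libraries together. Cxcr3, the receptor of Cxcl9 and Cxcl10, was at 0.135, 0.0467 and 0.0680 CPM in CTL and at 1.71, 0.175 and 0.367 CPM in Nelfb-/- libraries. The groups did not overlap in CPM, although CTL replicate 1 and Nelfb-/- replicate 2 held 3 reads each. The ratio of summed reads of Cxcr3 was 9.30 (95% counting interval 3.98 to 26.6). Most of its reads came from Nelfb-/- replicate 1. Ccr9, the Ccl25 receptor, stayed at or below 0.606 CPM and overlapped between groups. Ccr2, Ccr3, Cxcr2, Cxcr5 and Cxcr6, the receptors of several ligands described here, were not analysed here.

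**Figure D3:**
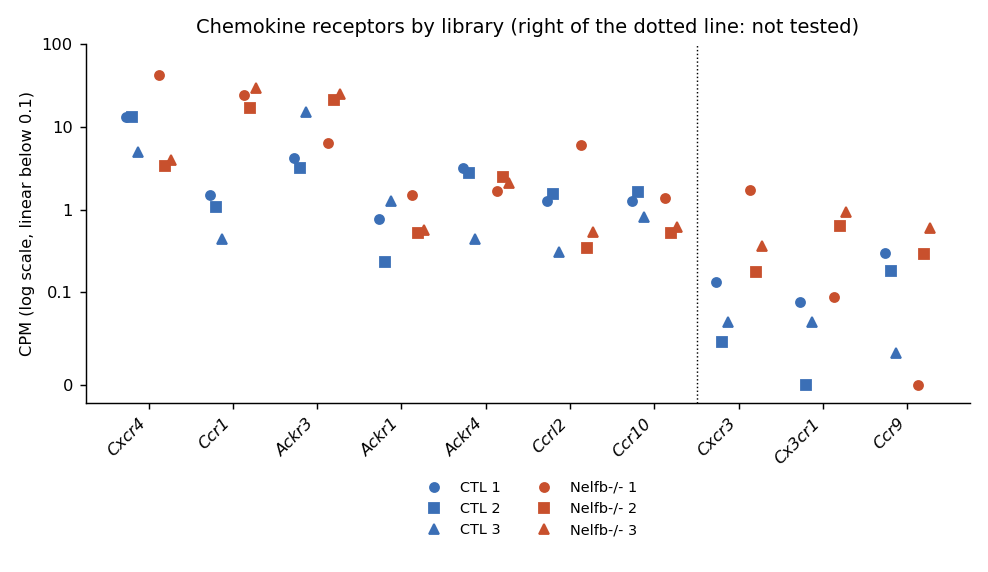
CPM (y axis, log scale, linear below 0.1) of 10 receptors in each library, CTL in blue and Nelfb-/- in orange, with circles, squares and triangles for replicates 1, 2 and 3. Ccr1 is the tested receptor (left of the dotted line) at which the groups do not overlap, whereas Cxcr4 reaches 42.2 CPM in Nelfb-/- replicate 1 and stays at or below 13.1 CPM in the other libraries.

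Per kb of exon, the order of the ligands differed between the groups. In CTL cells Ccl7 stood first with a mean of 12.6 CPM per kb, followed by Ccl3 (8.14), Ccl2 (4.47), Ccl11 (4.32) and Cxcl12 (4.15). Ccl3 ranged from 2.18 to 11.6 CPM per kb over the CTL libraries and Ccl2 from 2.50 to 8.13, so neighbours in this order did not differ beyond their spread. In Nelfb-/- cells Ccl7 was again first with 85.6 CPM per kb, then came Ccl2 (52.4), Ccl9 (30.4), Ccl11 (23.1) and Cxcl14 (20.9). All Nelfb-/- values of Ccl7 (81.4 to 89.4) lay above those of Ccl2 (47.7 to 55.9), and those of Ccl2 above those of Ccl9 (18.2 to 46.4). Ccl9, Ccl11 and Cxcl14 overlapped with each other. Among receptors Cxcr4 had the highest mean in both groups (5.75 CPM per kb in CTL, 9.13 in Nelfb-/- cells). In Nelfb-/- cells this rested on replicate 1, since Cxcr4 was at 23.3, 1.87 and 2.21 CPM per kb, below Ccr1 (8.44, 5.94 and 10.5) and Ackr3 (1.88, 6.35 and 7.48) in replicates 2 and 3. In CTL cells Cxcr4 (2.78 to 7.23) overlapped with Ackr3 (0.948 to 4.54). Ccr1 moved from a mean of 0.353 to one of 8.30 CPM per kb.

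The 3 Nelfb-/- libraries did not share 1 profile over these genes. Replicate 1 held the highest Nelfb-/- value at 15 of the 23 ligands and 6 of the 11 receptors. It exceeded the mean of replicates 2 and 3 by 13.8-fold for Ccrl2, 13.7-fold for Ccl3, 11.4-fold for Cxcr4, 6.19-fold for Ccl4, 2.30-fold for Ccl6 and 2.08-fold for Ccl9. In the same comparison it was at 0.19 times their mean for Cxcl14, 0.23 for Cxcl9, 0.25 for Cxcl5, 0.26 for Cxcl13, 0.27 for Ackr3 and 0.51 for Cx3cl1. For Ccl2, Ccl7, Ccl11 and Ccr1 the ratio lay between 0.93 and 1.22, though Ccr1 differed between replicates 2 and 3. In CTL cells replicate 3 stood apart in the opposite sense, at 0.20 times the mean of replicates 1 and 2 for Ccl3 and for Ccl6 and at 10.9 times it for Cxcl5, 10.2 for Cxcl14, 5.42 for Cxcl1 and 4.10 for Ackr3. Genes high in Nelfb-/- replicate 1 were thus often low in CTL replicate 3, and this grouping was made after the values were seen.

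**Figure D4:**
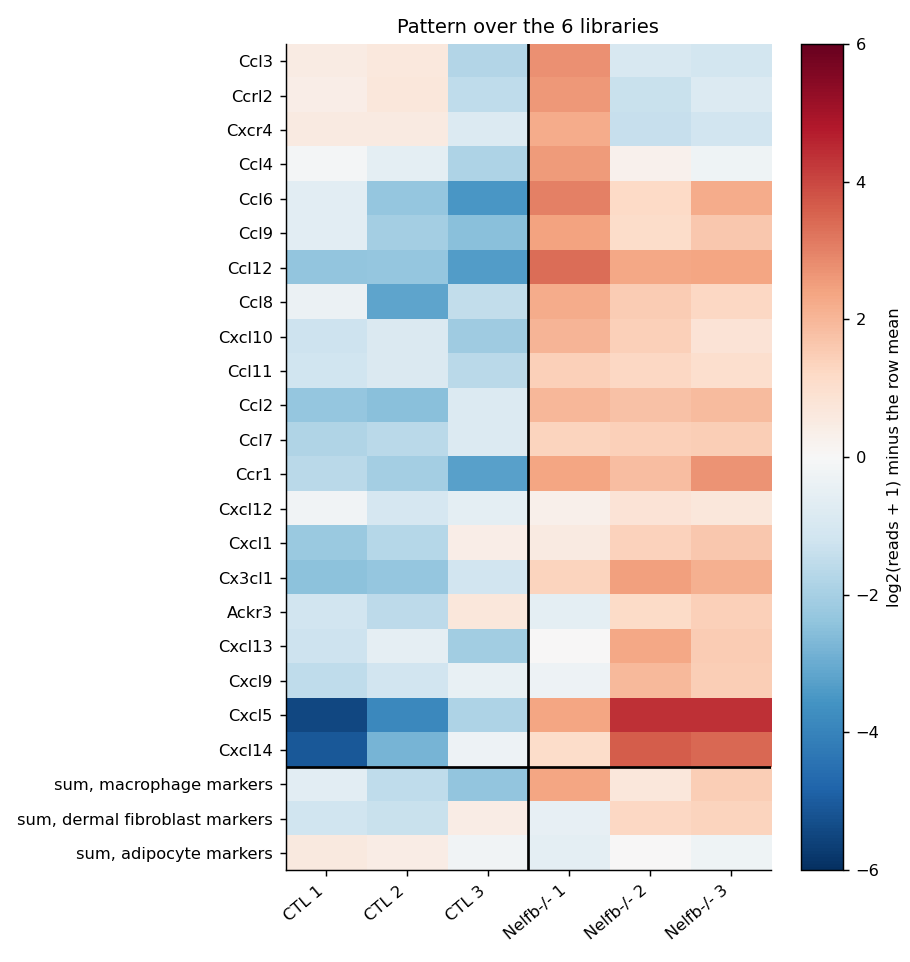
Heat map of 21 members and 3 marker sums (rows) in the 6 libraries (columns), as log2(reads + 1) at the common depth minus the mean of the row, red for above and blue for below the mean. Ccl3, Ccrl2, Cxcr4 and Ccl4 at the top are high in Nelfb-/- replicate 1, and Cxcl5 and Cxcl14 at the bottom are highest in Nelfb-/- replicates 2 and 3. The row of the macrophage sum is highest in Nelfb-/- replicate 1 and lowest in CTL replicate 3.

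Macrophage marker RNA was also higher in Nelfb-/- cells. Of 18 macrophage markers, all of them tested, 16 were called higher in Nelfb-/- cells, none was called lower, and the median log2 fold change was 3.02. For 1 of the 16 the minimum on reads was met only through Nelfb-/- libraries. Their summed level was 1139.8, 615 and 336 CPM in CTL and reached 9160.1, 2841 and 4835 CPM in Nelfb-/- libraries. The sum was highest in Nelfb-/- replicate 1, whereas this replicate was the highest Nelfb-/- library at 7 of the 14 called members and the lowest at 6. None of the 18 was at 0 reads in any library. Csf1r was at 22.6, 12.3 and 15.5 CPM in CTL and at 206, 87.0 and 148 CPM in Nelfb-/- libraries, and C1qa at 67.5, 37.7 and 26.9 CPM and at 779, 257 and 432 CPM, respectively. Cd68 and Mertk were the 2 markers that were not called. Among other leukocytes, 5 of 8 neutrophil markers were in the table with sums of at most 10.6 CPM, and the 2 of them that were tested were not called. For T cells 1 of 7 markers was in the table, at no more than 0.616 CPM, and it was too low to be tested. Of 10 dermal fibroblast markers none was called (limma, with 5 higher and 0 lower at an unadjusted p under 0.05), though 9 had a log2 fold change above 0, with a median of 1.24. Their sum ran from 5746 to 19547 CPM in CTL and from 10174 to 36269 CPM in Nelfb-/- libraries, highest in CTL replicate 3 and in Nelfb-/- replicates 2 and 3. Of 12 adipocyte markers Retn alone was called, as lower, while 5 were lower and 0 higher at an unadjusted p under 0.05 and the median log2 fold change was -0.65. Their sums were 26189 to 46073 CPM in CTL and 20019 to 30597 CPM in Nelfb-/- libraries. Markers of less abundant types were also called higher, namely 5 of 6 for melanocytes, 3 of 5 for Schwann cells (with Mbp lower), 4 of 4 for skeletal muscle, 1 of 6 for endothelium (Emcn), 1 of 4 for lymphatic endothelium (Lyve1), 1 of 4 for keratinocytes (Krt14) and 1 of 3 for dendritic cells (Itgax), counted over the tested markers, where 7.58% of all genes tested were called higher. The summed levels of the melanocyte, of the endothelial and of the dendritic cell markers overlapped between groups. In these lists 4 melanocyte markers and 1 each of skeletal muscle, endothelium, keratinocytes and dendritic cells were called after passing the minimum on reads only through their Nelfb-/- libraries. None was called for mast cells, pericytes and smooth muscle. The part of all these markers in the differences of the chemokine genes was not tested.

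The same values can be read per 1000 CPM of the summed macrophage markers, a measure that was chosen after the levels were seen. The platelet and macrophage chemokine Pf4, whose CPM was called higher, was on this measure at 12.1, 12.7 and 16.7 in CTL and at 11.2, 13.6 and 12.6 in Nelfb-/- libraries, and the groups overlapped. Ccl9 was at 14.8, 10.3 and 13.7 in CTL and at 15.4, 19.5 and 16.7 in Nelfb-/- libraries, which is a ratio of means of 1.33 where its CPM gave 9.96. Ccl6 was at 3.72, 2.05 and 1.62 in CTL and at 5.75, 5.24 and 6.38 in Nelfb-/- libraries, a ratio of 2.35. Ccr1 was at 1.31, 1.75 and 1.31 in CTL and at 2.61, 5.92 and 6.16 in Nelfb-/- libraries, a ratio of 3.36. The groups overlapped for Ccl2, at 2.77, 4.63 and 27.5 in CTL and 6.94, 19.1 and 12.6 in Nelfb-/- libraries, and for Cxcl10, at 1.74, 4.25 and 3.13 in the CTL and 2.13, 4.53 and 1.74 in the Nelfb-/- group. Cxcl12 was apart and lower, at 38.4, 40.4 and 98.8 in CTL and 6.70, 30.5 and 16.6 in Nelfb-/- libraries. Of the 14 called genes, 4 were apart and higher per 1000 CPM of macrophage markers, 1 was apart and lower, and 9 overlapped. Cxcl5 was among those that overlapped, with a ratio of means of 14.6. Per 1000 CPM of the summed dermal fibroblast markers, 7 of the 14 were apart and higher and 7 overlapped. Neither sum is a count of cells, and these genes were picked from those called higher by CPM, so the values are a description.

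**Figure D5:**
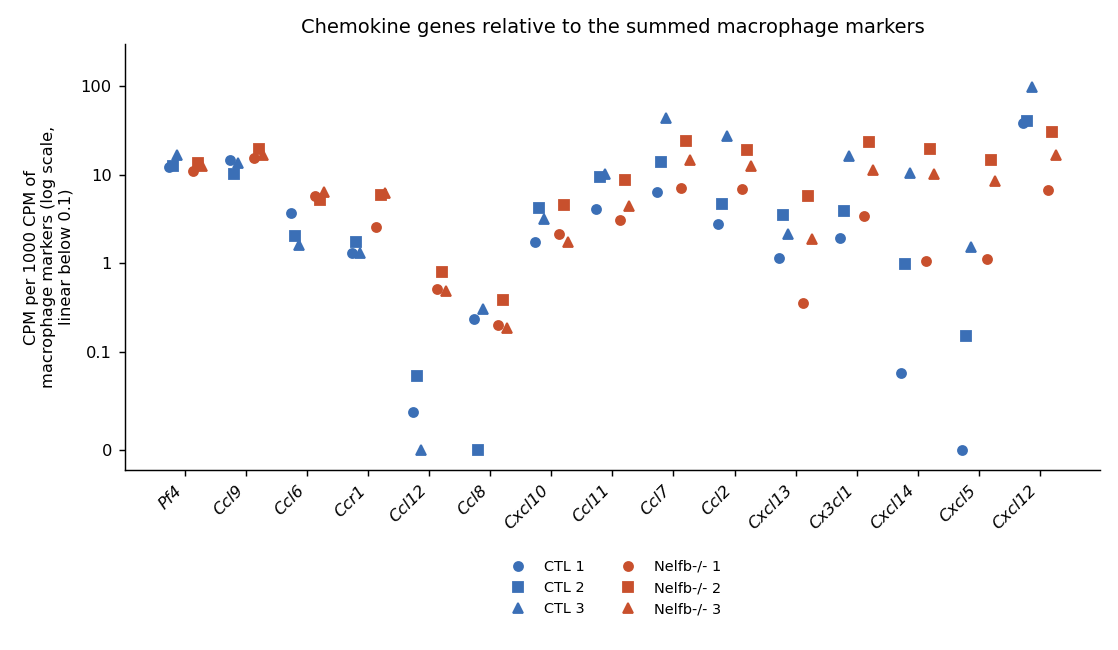
Level of Pf4 and of the 14 called genes per 1000 CPM of the 18 summed macrophage markers (y axis, log scale, linear below 0.1), CTL in blue and Nelfb-/- in orange, with circles, squares and triangles for replicates 1, 2 and 3. Pf4 lies between 11.2 and 16.7 in all 6 libraries, Ccl6, Ccl9, Ccl12 and Ccr1 lie higher in all Nelfb-/- libraries, and Cxcl12 lies lower in them.

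Promoter sequences were looked at because many of these ligands are textbook targets of NF-kappaB, AP-1 and interferon-regulated factors. RefSeq promoters (GRCm38.p6, from 250 bases before to 50 bases after the start) were matched by symbol to 25 of the 34 genes. Ccl2, Ccl4, Ccl5, Ccl7, Ccl11, Cxcl5, Cxcl16 and Ccr10 were among those with no entry. Letters were searched on both strands, as GGGANNTTC for NF-kappaB, TGANTCA for AP-1, GAAANNGAA for the interferon-stimulated response element (ISRE), TTGCNNAA for C/EBP and TATAAA for the TATA box. The NF-kappaB letters were in 4 of 25 member promoters (Cxcl1, Cxcl2, Cxcl9 and Cxcl10), beside 3.73% of the 11978 promoters of genes in the table. The ISRE letters were in 4 (Ccl3, Cxcl9, Cxcl10 and Cxcl14) beside 7.26%, the AP-1 letters in 4 beside 5.21%, the C/EBP letters in 3 beside 8.51% and the TATA letters in 9 beside 7.97%. Member promoters had a median GC content of 50.3% and a median of 5 CpG, beside 60.3% and 20 over all promoters matched. A match of letters is not evidence that a factor was bound.

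The 250 bases before the start are printed for 6 ligands, 5'-3' on the gene's own strand, with matches to any of the 5 sets of letters in capitals. Cxcl10 (chr5:92348890-92349139, minus strand) and Cxcl9 (chr5:92328080-92328329, minus strand) are shown because they hold both the ISRE and the NF-kappaB letters, which begin 213 and 159 bases before the start in Cxcl10 and 175 and 154 bases before it in Cxcl9. Cxcl1 (chr5:90890995-90891244, plus strand) is shown as an ELR ligand with a pair of overlapping NF-kappaB matches on opposite strands, which begin 71 and 69 bases before the start, and Cxcl2 holds such a pair too.
Cxcl10: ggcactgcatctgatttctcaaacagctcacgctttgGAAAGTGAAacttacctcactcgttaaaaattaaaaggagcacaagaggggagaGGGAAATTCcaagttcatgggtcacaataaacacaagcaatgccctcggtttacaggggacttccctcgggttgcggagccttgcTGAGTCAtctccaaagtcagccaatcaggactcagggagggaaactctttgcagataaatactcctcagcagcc
Cxcl9: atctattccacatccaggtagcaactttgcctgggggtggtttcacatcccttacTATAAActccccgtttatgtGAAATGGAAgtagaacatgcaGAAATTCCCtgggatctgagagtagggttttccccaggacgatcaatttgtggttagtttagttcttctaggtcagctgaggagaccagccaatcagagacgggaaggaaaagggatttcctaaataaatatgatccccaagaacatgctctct
Cxcl1: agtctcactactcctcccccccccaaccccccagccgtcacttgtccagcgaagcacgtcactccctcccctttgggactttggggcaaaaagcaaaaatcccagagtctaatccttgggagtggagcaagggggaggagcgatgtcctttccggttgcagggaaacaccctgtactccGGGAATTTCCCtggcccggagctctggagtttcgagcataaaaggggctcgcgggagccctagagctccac
Ccl12 (chr11:82101595-82101844, plus strand) and Ccl8 (chr11:82114935-82115184, plus strand) are neighbours that were both called, and they are shown for the TATA letters 31 and 32 bases before the start. Ccl9 (chr11:83578637-83578886, minus strand) is shown for the AP-1 letters 53 bases before the start, with TATA letters on both strands further upstream.
Ccl12: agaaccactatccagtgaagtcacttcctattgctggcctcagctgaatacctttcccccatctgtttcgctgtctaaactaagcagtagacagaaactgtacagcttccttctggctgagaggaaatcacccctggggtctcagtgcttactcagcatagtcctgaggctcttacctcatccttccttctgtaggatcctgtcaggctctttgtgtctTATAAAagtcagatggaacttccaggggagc
Ccl8: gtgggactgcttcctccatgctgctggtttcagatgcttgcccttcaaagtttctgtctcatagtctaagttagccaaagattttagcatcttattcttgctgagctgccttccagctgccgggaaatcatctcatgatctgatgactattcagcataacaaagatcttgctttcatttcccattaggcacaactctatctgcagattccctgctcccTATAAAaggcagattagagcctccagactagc
Ccl9: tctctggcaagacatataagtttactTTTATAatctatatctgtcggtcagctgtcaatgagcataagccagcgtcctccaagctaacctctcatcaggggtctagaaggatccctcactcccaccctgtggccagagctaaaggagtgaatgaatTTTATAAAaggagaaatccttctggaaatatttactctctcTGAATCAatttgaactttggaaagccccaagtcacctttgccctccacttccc
Of the 6, Cxcl10, Ccl12, Ccl8 and Ccl9 were called higher and Cxcl9 and Cxcl1 were not, and the NF-kappaB letters were in 1 of the 10 called genes with a promoter.

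Genes that act with chemokines were taken from lists written from general knowledge, and their counts stand beside 7.58% of all genes called higher and 3.64% called lower. Of 7 tested chemokine genes outside the symbol rule, Pf4 was called higher and Mif, a cytokine that binds Cxcr4, lower. Pf4 was at 13.8, 7.84 and 5.61 CPM in CTL and at 102, 38.8 and 61.1 CPM in Nelfb-/- libraries, with a log2 fold change of 2.87 ± 0.45 (SE, adjusted p = 0.011 in limma). Mif was at 109.6, 149.5 and 217 CPM in CTL and at 37.8, 64.8 and 48.8 CPM in Nelfb-/- libraries, with a log2 fold change of -1.63 ± 0.30 (SE, adjusted p = 0.018 in limma). Of 32 genes of receptor signalling 9 were called higher and 1 lower, with a median log2 fold change of 0.74. Of the 9, Fgr passed the minimum only through its Nelfb-/- libraries. Those that rose included leukocyte genes, among them Vav1 (log2 fold change 3.47) and Pik3cg (3.28), and the gene that fell was the receptor kinase Grk3 (-2.44). Of 14 genes of presentation, processing and shedding 3 were called higher and 0 lower, with a median of 0.52. These were Dpp4, a peptidase that trims chemokines (log2 fold change 2.20), Tnfaip6, which binds them (1.37), and the Cx3cl1 sheddase Adam10 (1.17). Adam17 had a log2 fold change of 0.11 and was not called.

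Genes upstream of chemokine transcription are given against the same shares of all genes. Of 24 genes of the NF-kappaB list 5 were called higher and 0 lower, with a median log2 fold change of 0.36. Among these, Il6 and Tnf passed the minimum on reads only through their Nelfb-/- libraries and had to differ, and 3 of the 21 genes that passed on CTL alone were called. Il6 had 1 read in each CTL library and 18, 37 and 49 reads in Nelfb-/- libraries. Tnf was at 0.180, 0.187 and 0.136 CPM in CTL and at 1.14, 0.582 and 0.898 CPM in Nelfb-/- libraries. The receptor Tlr2 (log2 fold change 1.90) and the feedback genes Nfkbie (1.47) and Bcl3 (1.27) were the others. Of 17 interferon response genes 4 were called higher and 0 lower, namely Mx1 (log2 fold change 4.06), Rsad2 (2.06), Ifit1 (2.0) and Gbp2 (1.47), with a median of 1.12. Mx1 also passed only through its Nelfb-/- libraries, and 3 of the 16 others were called. Of 9 genes for the decay of AU-rich mRNA, which limits many chemokine transcripts, none was called by limma in either direction, 1 was higher at an unadjusted p under 0.05, and the median was 0.06.

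The list of other attractants, which also holds receptors and growth factors, had genes called in both directions. Of 17 tested genes for other leukocyte growth factors and attractants 7 were called higher and 2 lower, with a median log2 fold change of 1.44. Of the 7, Fpr1 passed the minimum only through its Nelfb-/- libraries. The complement receptors C5ar1 (log2 fold change 3.48) and C3ar1 (2.93) and the alarmin Il33 (3.28) were among those that rose. C3, the complement component that C3ar1 senses in cleaved form, was at 1222, 1248 and 768 CPM in CTL and at 212, 85.9 and 97.3 CPM in Nelfb-/- libraries, with a log2 fold change of -3.12 ± 0.39 (SE, adjusted p = 0.0064 in limma). Rarres2, which encodes the chemerin that Ccrl2 presents, was at 109.8, 121 and 218 CPM in CTL and at 53.8, 53.7 and 35.5 CPM in Nelfb-/- libraries, with a log2 fold change of -1.60 ± 0.31 (SE, adjusted p = 0.019 in limma). Csf1, the growth factor of macrophages, was at 168, 137 and 413 CPM in CTL and at 536, 630.2 and 559.8 CPM in Nelfb-/- libraries, and its log2 fold change of 1.44 ± 0.41 (SE, adjusted p = 0.060 in limma) did not pass the threshold, although the groups did not overlap.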

How the data were processed

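RNA-seq libraries of 3 CTL and 3 Nelfb-/- cultures, each described as a separate biological replicate, were analysed from 1 gene table. The values deposited by the authors are CPM: each column sums to 1e+06 once an offset of 0.0001 CPM is removed. The submitters' processing notes name STAR 2.7, Partek 9.0.20.0202 and mm10, without the step each tool served, and strand use is not given in the sources used here. A gene without a row in the table was not analysed here, and a few genes are counted but not reported by name here.

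The CPM worth of 1 read was read from the lowest steps of each library. Only 75.8% to 78.8% of values up to 20 reads were whole within 0.1 read, so no count model was run. Values were scaled to the common depth of 22.3 M reads (M, 1e+06), and genes averaging 10 reads or more were tested as log2(reads + 1) with limma 3.58.1 (lmFit and eBayes with an abundance trend, R 4.3.3), with adjusted p by Benjamini-Hochberg over all genes tested. The limits of an adjusted p of 0.05 and 2-fold are those of the study. An exact permutation test with 3 against 3 libraries cannot give a p below 0.1, which 16 of the tested members reached. Read ratios carry exact 95% intervals that cover counting error only. The code was tested on simulated data.

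Members were found by symbol and biotype. Values per library are given for each called member and tested receptor, and other members by range or in full where space allowed. The members, gene lists, motif letters and marker lists were chosen with earlier results of these data known, and the lists come from general knowledge. Gene positions are those of the table on GRCm38, checked against GENCODE vM21, which also gave exon lengths, and all 34 members agreed in position. Alternatives were the replicate number as a block, other pseudocounts (0.5 and 5 reads), other minimums, median-of-ratios scaling, other variance priors, no limit on the fold, a shorter promoter window and each library left out in turn. Figures were drawn with matplotlib 3.10.9.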

Additional observations from a re-analysis of the deposited data

How the results depend on the processing

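Under the 9 alternatives that kept all 6 libraries, the number of ligands called higher stayed within 1.5 times 13, no ligand or receptor was called lower, and receptors called higher became 2 with no minimum on reads and with 10 reads in 1 or more libraries. A pseudocount of 5 reads lowered the log2 fold changes of the genes with few CTL reads, to 6.15 for Cxcl5, 3.64 for Ccl12 and 2.14 for Ccl8, and all 3 stayed called, while one of 0.5 reads gave 5.97 for Ccl12. With each library left out in turn, the genes called over the whole table numbered 426 to 2479 beside 1824, with 871 without CTL replicate 1, 758 without CTL replicate 2, 945 without Nelfb-/- replicate 2 and 426 without Nelfb-/- replicate 3. The ligands called higher then numbered 7 to 13 and the receptors 1 to 2. Fewer libraries enter these fits. Of the 14 called members, 8 kept the call in all 6 of them and the other 6 lost it without CTL replicate 2 or Nelfb-/- replicate 3 at least. Log2 fold changes that changed sign ran from -0.68 to 0.028 for Ccl25, -0.80 to 1.11 for Ccl3, -0.33 to 0.78 for Ackr1, -0.51 to 0.85 for Ackr4, -0.92 to 1.06 for Ccrl2 and -1.36 to 0.45 for Cxcr4, and the cause was not tested. AP-1 letters were in 2 member promoters when only the 250 bases before the start were searched.

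The labels do not say whether CTL and Nelfb-/- replicates of the same number were paired. Deviations from the group means correlated at 0.52, -0.39 and 0.52 for replicates 1, 2 and 3. Some libraries of unlike number correlated as much, such as CTL replicate 3 with Nelfb-/- replicate 2 (0.54), so these values cannot decide it. A fit with the replicate block called 2175 genes over the table and 14 ligands, with Cxcl1 as the one member gained. The 7 members under the minimum had too few reads to be tested at this depth, and genes with a few CTL reads, such as Ccl12, have no firm fold.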
